A study of Mus musculus with 12 samples.

Results

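The 9 genes for chemokine and chemoattractant receptors Ccr1, Ccr2, Ccr3, Ccrl2, Cx3cr1, Cxcr4, Fpr1, Fpr2 and Cmklr1 were followed in total RNA from mouse macrophages. They were taken by gene name, and all 9 were found among the 32246 genes of the deposited table. The cells were grown out of bone marrow over 7 days in GM-CSF at 50 ng/mL, in all groups alike. PLG+EACA+RNase cells (4 libraries) received for 24 h a PLG preparation that had met EACA and RNases. PLG+EACA cells (4 libraries) received for the same time a PLG preparation that had met EACA only. Untreated cells (4 libraries) received neither. The labels do not spell out PLG, which is read here as plasminogen, the precursor of the protease plasmin; EACA is a lysine analogue that occupies plasminogen's lysine-binding sites. There was no group with EACA alone, RNase alone or PLG alone, so the effects of the components cannot be told apart in the comparisons with untreated cells. The labels used here give no strain, sex or age, and whether replicates are separate mice or dishes is not stated, so p-values measure only the spread between these libraries.

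Chemokine and chemoattractant receptors are proteins of the cell surface that couple to G proteins and steer a cell along a gradient of their ligand. Macrophages use them to enter tissue, to stay there and to find bacteria or dying cells, and their transcript levels are known to shift when the cells are activated. Ccrl2 is the exception in this set. Its protein binds the chemoattractant chemerin without driving migration by itself and can present it to Cmklr1, a signalling chemerin receptor.

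Of the 9 genes, 5 lie on chromosome 9, and all positions are those of the deposited table on GRCm38.p6. On chromosome 9 these are Ccrl2 (chr9:111054486-111057519, minus strand), Cx3cr1 (chr9:119901616-120069879, minus strand), Ccr1 (chr9:123962124-123968692, minus strand), Ccr3 (chr9:124021972-124031689, plus strand) and Ccr2 (chr9:124101950-124113557, plus strand). The others are Cxcr4 (chr1:128588199-128592293, minus strand), Cmklr1 (chr5:113612354-113650426, minus strand), Fpr1 (chr17:17876471-17883940, minus strand) and Fpr2 (chr17:17887824-17893952, plus strand).

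Levels are given as FPKM, that is, reads scaled to gene length and to library depth, so levels of different genes can be set side by side. Library depth, read back from the smallest steps between FPKM values, ran from 12940888 to 22677041 reads. Macrophage markers were present in every library. Csf1r, the receptor for CSF-1, was at 180 to 192 FPKM with PLG+EACA+RNase, 181 to 190 FPKM with PLG+EACA and 316 to 333 FPKM in untreated cells. The markers did not all move with Csf1r. By the limma test given below, 2 of the 9 were higher and 4 lower in PLG+EACA+RNase against untreated cells. In PLG+EACA against untreated cells 4 were higher and 4 lower. Markers of T and NK cells summed to at most 0.383 FPKM per library and those of B cells to at most 0.498 FPKM. Of the 9 dendritic cell markers, 6 averaged at least 1 FPKM in each group, with Itgax and Ccl22 the most abundant. Ccr7 lay at 59.6 to 137 FPKM and Fscn1 at 95.9 to 195 FPKM over all libraries. Zbtb46 did not exceed 5.75 FPKM and Clec9a 5.48 FPKM in any library, and Flt3, Xcr1 and Cd209a stayed below 1 FPKM. By limma, 2 of the 6 dendritic cell markers tested were higher and 2 lower in PLG+EACA+RNase against untreated cells. In PLG+EACA against untreated cells 1 was higher and 2 were lower. The most abundant RNA, Gm26917, took 13.3% to 15.2% of reads with PLG+EACA+RNase, 11% to 14.3% with PLG+EACA and 10.3% to 11.9% in untreated cells. The 11165 genes that reached 1 FPKM in 4 or more libraries were tested with limma on log2(FPKM + 0.5), which understates the change of low genes; adjusted p is Benjamini-Hochberg over all of them, with a threshold of 0.05. The median of all genes tested moved by -0.20 on the log2 scale in PLG+EACA+RNase against untreated cells, by -0.26 in PLG+EACA against untreated cells, and by 0.04 between the treatments. Most changes against untreated cells are therefore also given relative to that median or under other scalings.

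The 2 chemerin receptors of this set changed in opposite directions against untreated cells and were not told apart between the treatments. Ccrl2 had 96.1, 87.2, 91.5 and 85.8 FPKM with PLG+EACA+RNase, 94.7, 91.4, 98.4 and 91.2 FPKM with PLG+EACA, and 15.4, 14.5, 14.8 and 16.6 FPKM in untreated cells. Every treated library lay above every untreated one, and the treated groups overlapped. Ccrl2 rose 5.73-fold with PLG+EACA+RNase (log2 fold change 2.52, SE 0.0524, limma adjusted p = 6.09e-11) and 5.97-fold with PLG+EACA (log2 fold change 2.58, SE 0.0524, limma adjusted p = 4.62e-11). Relative to the median gene these changes were 2.72 and 2.83 on the log2 scale. Between PLG+EACA+RNase and PLG+EACA its log2 fold change was -0.06 (95% interval -0.17 to 0.05, limma adjusted p = 0.44).

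Cmklr1 had 33.6, 33.2, 40.2 and 37.7 FPKM with PLG+EACA+RNase, 38.3, 39.8, 35.2 and 46.6 FPKM with PLG+EACA, and 69.0, 70.2, 67.6 and 73.4 FPKM in untreated cells. No treated library reached the lowest untreated one. The gene fell 1.93-fold with PLG+EACA+RNase (log2 fold change -0.95, SE 0.083, limma adjusted p = 2.08e-06) and 1.75-fold with PLG+EACA (log2 fold change -0.81, SE 0.083, limma adjusted p = 5.55e-06), or -0.74 and -0.55 on the log2 scale relative to the median gene. Between the treatments the log2 fold change was -0.14 (95% interval -0.32 to 0.04, limma adjusted p = 0.252). A long noncoding RNA on the other strand within Cmklr1, Gm15736, averaged 2.08 FPKM with PLG+EACA+RNase, 1.92 FPKM with PLG+EACA and 4.28 FPKM in untreated cells; no source used here says that reads were counted by strand, so the 2 genes' reads cannot be told apart where they overlap. Transcripts of chemerin itself, Rarres2, were at most 0.022 FPKM with PLG+EACA+RNase, 0.021 FPKM with PLG+EACA and 0.025 FPKM in untreated cells.

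**Figure D1:**
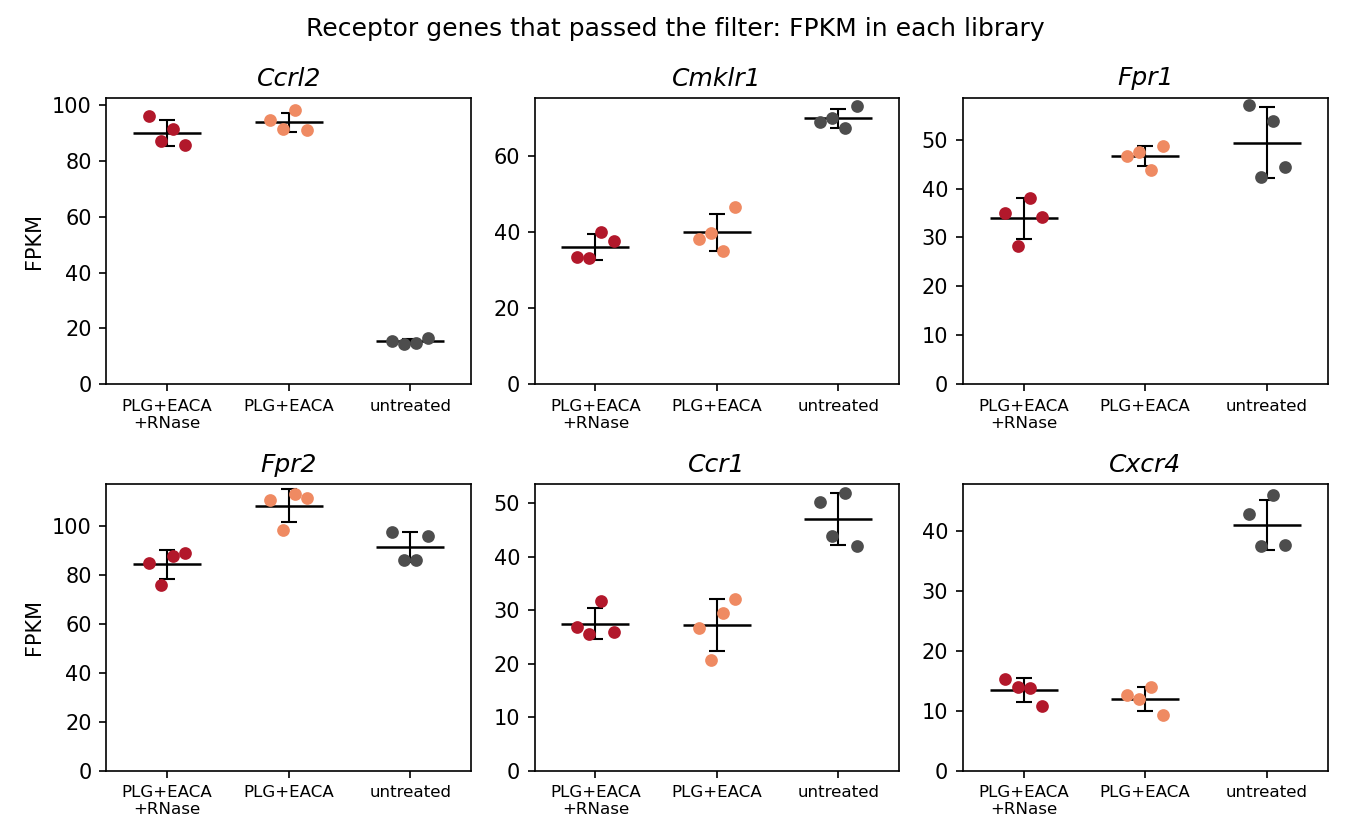
FPKM (vertical axes, from 0) of the 6 receptor genes that passed the filter, with 1 point per library, a bar at the mean and whiskers of 1 SD (n = 4) for PLG+EACA+RNase, PLG+EACA and untreated cells. Ccrl2 lies at 85.8 to 98.4 FPKM in treated libraries against 14.5 to 16.6 FPKM in untreated ones, and Fpr1 and Fpr2 are lower with PLG+EACA+RNase than with PLG+EACA.

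The promoter of Ccrl2 is shown because this gene rose most among the receptors tested, and that of Ccr1 because it holds a match to the same motif while the gene fell. The windows run from 250 bases before to 50 bases after a RefSeq start (GRCm38.p6), read 5′ to 3′ on the gene's strand. Those of Ccrl2 (chr9:111057469-111057768, minus strand, the most upstream of its 3 starts) and Ccr1 (chr9:123968643-123968942, minus strand) are given with a match to the NF-kB consensus in capitals.
Ccrl2: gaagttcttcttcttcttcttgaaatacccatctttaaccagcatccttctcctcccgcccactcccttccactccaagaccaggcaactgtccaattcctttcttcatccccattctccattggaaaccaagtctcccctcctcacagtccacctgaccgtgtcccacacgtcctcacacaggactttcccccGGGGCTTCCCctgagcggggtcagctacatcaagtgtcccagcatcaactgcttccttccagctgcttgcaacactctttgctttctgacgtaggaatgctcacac
Ccr1: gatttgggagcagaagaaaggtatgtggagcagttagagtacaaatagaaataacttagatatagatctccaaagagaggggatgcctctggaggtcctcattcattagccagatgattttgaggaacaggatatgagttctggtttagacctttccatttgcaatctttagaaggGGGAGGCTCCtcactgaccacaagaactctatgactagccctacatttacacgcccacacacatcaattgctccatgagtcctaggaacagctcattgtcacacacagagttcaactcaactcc
The match begins 56 bases before the start in Ccrl2 and 74 bases before it in Ccr1. All 9 genes matched a window, 11 windows in all, and 3 of the 11 held the NF-kB consensus on either strand, against 8.46% of the 32851 promoter windows of the same length. The remaining match was in Ccr3. No window of these genes held the interferon-stimulated response element (3.44% of all windows) or the PU.1 motif GAGGAAGT (3.2%), searched on both strands. A match is a string of letters and says nothing of a factor being bound.

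The 2 formyl peptide receptors, which detect bacterial and mitochondrial peptides, were the receptors tested that differed between the treatments. Fpr1 had 35.1, 28.3, 38.1 and 34.1 FPKM with PLG+EACA+RNase, 46.7, 47.5, 43.7 and 48.7 FPKM with PLG+EACA, and 57.1, 42.3, 53.9 and 44.3 FPKM in untreated cells. All PLG+EACA+RNase libraries lay below all libraries of both other groups, and the range of PLG+EACA lay within that of untreated cells. Fpr1 fell 1.38-fold in PLG+EACA+RNase against PLG+EACA (log2 fold change -0.46, SE 0.104, limma adjusted p = 0.013). Against untreated cells it fell 1.45-fold with PLG+EACA+RNase (log2 fold change -0.53, limma adjusted p = 0.000756). Under the alternatives, other scalings included, that log2 fold change was -0.60 to -0.30 (limma adjusted p = 0.00028 to 0.0297). With PLG+EACA the log2 fold change was -0.07 (95% interval -0.30 to 0.16, limma adjusted p = 0.563), a sign that turned with median-of-ratios scaling (0.20, adjusted p = 0.125).

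Fpr2, whose protein also binds annexin A1 and serum amyloid A, had 85.0, 76.0, 87.8 and 89.2 FPKM with PLG+EACA+RNase, 110.8, 98.4, 113.2 and 111.5 FPKM with PLG+EACA, and 97.9, 86.2, 86.4 and 96.0 FPKM in untreated cells. The PLG+EACA libraries were the highest of the 3 groups and overlapped neither other group, while PLG+EACA+RNase overlapped untreated cells. Fpr2 fell 1.28-fold in PLG+EACA+RNase against PLG+EACA (log2 fold change -0.36, SE 0.0668, limma adjusted p = 0.00697) and rose 1.18-fold in PLG+EACA against untreated cells (log2 fold change 0.24, SE 0.0668, limma adjusted p = 0.00637). With median-of-ratios scaling the rise was larger (log2 fold change 0.52, limma adjusted p = 8.86e-05). In PLG+EACA+RNase against untreated cells its log2 fold change was -0.12 (95% interval -0.26 to 0.03, limma adjusted p = 0.146), and after scaling by median of ratios it was 0.12 (limma adjusted p = 0.2). Both genes are also expressed by neutrophils: the 12 neutrophil markers summed to 130 to 165 FPKM with PLG+EACA+RNase, 149 to 191 FPKM with PLG+EACA and 314 to 406 FPKM in untreated cells, most of it Mmp8. Mmp8 averaged 107 FPKM with PLG+EACA+RNase, 119 FPKM with PLG+EACA and 313 FPKM in untreated cells, and it carried the difference in the sums. Csf3r was also lower on average in both treatments, while S100a9, Ngp and Ltf were higher in both. S100a8 and Camp were higher in 1 treatment and lower in the other. Of the 7 neutrophil markers tested 1 was higher and 2 were lower in PLG+EACA+RNase against untreated cells, 0 were higher and 2 lower in PLG+EACA against untreated cells, and none was called by limma between the treatments; Ly6g was at 0 in all untreated libraries. The part of neutrophils in the values of Fpr1 and Fpr2 was not tested.

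Fpr1 and Fpr2 lie 3883 bases apart on chromosome 17 and are read away from each other, so both starts face the same gap. Their windows, Fpr1 (chr17:17883890-17884189, minus strand) and Fpr2 (chr17:17887574-17887873, plus strand), are shown because these neighbours both fell between the treatments; capitals mark the STAT motif GAS, TTCNNNGAA.
Fpr1: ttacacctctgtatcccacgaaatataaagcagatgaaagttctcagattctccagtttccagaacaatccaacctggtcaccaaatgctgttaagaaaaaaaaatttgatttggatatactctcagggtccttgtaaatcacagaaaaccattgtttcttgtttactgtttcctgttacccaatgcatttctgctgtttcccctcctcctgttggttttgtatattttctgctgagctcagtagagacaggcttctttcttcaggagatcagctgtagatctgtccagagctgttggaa
Fpr2: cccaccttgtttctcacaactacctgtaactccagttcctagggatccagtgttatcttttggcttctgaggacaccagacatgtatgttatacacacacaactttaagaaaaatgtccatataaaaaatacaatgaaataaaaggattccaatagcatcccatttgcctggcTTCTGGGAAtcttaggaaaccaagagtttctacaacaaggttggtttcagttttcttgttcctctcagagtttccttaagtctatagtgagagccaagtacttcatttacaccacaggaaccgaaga
The GAS letters begin 77 bases before the start of Fpr2 and are not in the Fpr1 window; 8.30% of all windows hold them. The AP-1 motif TGANTCA (7.81% of all windows) is in neither, and no 2 motif matches overlap in any window of the 9 genes. Fpr3, which overlaps Fpr2 on the same strand, averaged 0.0808 FPKM with PLG+EACA+RNase, 0.03 FPKM with PLG+EACA and 0.009 FPKM in untreated cells, and reads shared between these related genes remain uncertain.

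**Figure D2:**
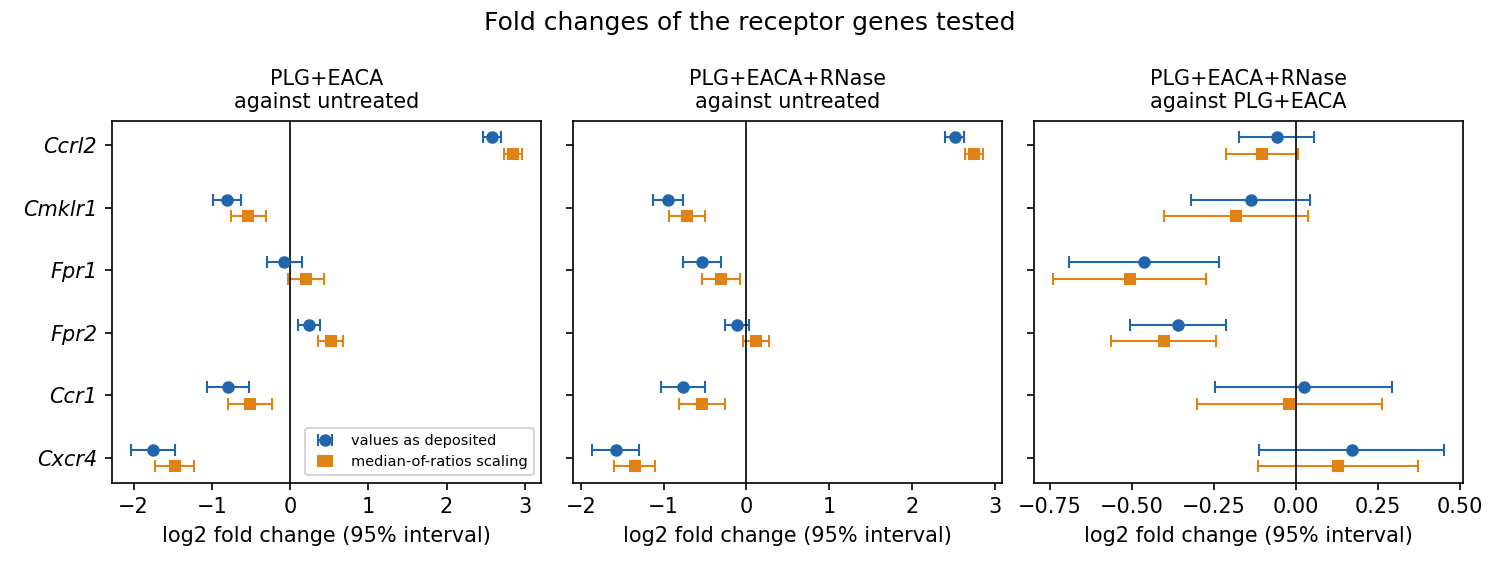
Log2 fold changes of the 6 receptor genes tested (horizontal axes, with 95% intervals from limma) in the 3 comparisons, with values as deposited and after median-of-ratios scaling. Fpr1 and Fpr2 are the genes whose interval lies below 0 in PLG+EACA+RNase against PLG+EACA, and scaling moves the values against untreated cells upward.

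Cxcr4 and Ccr1 were lower in both treatments. Cxcr4, the receptor for CXCL12, which retains cells in bone marrow, had 15.3, 14, 13.8 and 10.7 FPKM with PLG+EACA+RNase, 12.6, 11.9, 14 and 9.25 FPKM with PLG+EACA, and 42.9, 37.4, 46.0 and 37.7 FPKM in untreated cells. The highest treated library stood under every untreated one by a wide margin. Cxcr4 fell 2.99-fold with PLG+EACA+RNase (log2 fold change -1.58, SE 0.129, limma adjusted p = 1.26e-06) and 3.36-fold with PLG+EACA (log2 fold change -1.75, SE 0.129, limma adjusted p = 5.54e-07). Relative to the median gene the changes were -1.38 and -1.49. Between the treatments the log2 fold change was 0.17 (95% interval -0.11 to 0.45, limma adjusted p = 0.37). Its ligand Cxcl12 did not exceed 0.146 FPKM in any library.

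Ccr1, a receptor for CCL3, CCL5 and related chemokines, had 26.9, 25.4, 31.7 and 25.8 FPKM with PLG+EACA+RNase, 26.7, 20.7, 29.5 and 32.0 FPKM with PLG+EACA, and 50.2, 43.8, 52.0 and 42.0 FPKM in untreated cells. Again the treated libraries overlapped each other and not the untreated ones. Ccr1 fell 1.70-fold with PLG+EACA+RNase (log2 fold change -0.77, SE 0.124, limma adjusted p = 0.000189) and 1.73-fold with PLG+EACA (log2 fold change -0.79, SE 0.124, limma adjusted p = 0.000137), or -0.56 and -0.53 relative to the median gene. Between the treatments the log2 fold change was 0.02 (95% interval -0.25 to 0.29, limma adjusted p = 0.912), and -0.02 with median-of-ratios scaling.

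The other 3 receptors stayed under the filter and were not part of the fit: Cx3cr1, Ccr2 and Ccr3. Each was set against the other groups by an exact permutation test of the FPKM, 4 against 4 libraries, two-sided and unadjusted, for which 0.0286 is the smallest possible p. Cx3cr1, the receptor for the membrane-bound chemokine fractalkine, had 0.087, 0.224, 0.12 and 0.047 FPKM with PLG+EACA+RNase (4 to 17 reads), 0.228, 0.098, 0.137 and 0.228 FPKM with PLG+EACA (10 to 20 reads), and 1.10, 0.796, 0.911 and 0.885 FPKM in untreated cells (53 to 108 reads). No treated library approached an untreated one: mean FPKM was 7.73-fold lower with PLG+EACA+RNase and 5.35-fold lower with PLG+EACA (exact permutation p = 0.0286 each, n = 4), and the treatments overlapped (exact permutation p = 0.257, n = 4). In limma without a filter Cx3cr1 fell in both (adjusted p = 2.49e-05 and 4.81e-05). The deposited Cx3cr1 gene spans 168264 bases and 9 other genes. Of those on its strand, Csrnp1 averaged 53.0 FPKM with PLG+EACA+RNase, 44.6 FPKM with PLG+EACA and 14.4 FPKM in untreated cells, higher in the treatments. Gorasp1, also on its strand, averaged 2.46 FPKM with PLG+EACA+RNase, 1.4 FPKM with PLG+EACA and 3.41 FPKM in untreated cells, lower in the treatments as Cx3cr1 was; how reads in the overlap were assigned is not stated.

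Ccr2, the CCL2 receptor that brings monocytes out of bone marrow, had 0.29, 0.219, 0.251 and 0.32 FPKM with PLG+EACA+RNase (22 to 41 reads), 0.432, 0.483, 0.331 and 0.481 FPKM with PLG+EACA (40 to 74 reads), and 0.361, 0.5, 0.629 and 0.388 FPKM in untreated cells (44 to 87 reads). The PLG+EACA+RNase libraries lay below both other groups, which overlapped each other. The exact permutation p was 0.0286 for PLG+EACA+RNase against each of them and 0.629 for PLG+EACA against untreated cells (n = 4). Neither difference passed in limma without a filter (adjusted p = 0.055 against untreated cells and 0.183 against PLG+EACA). With limma voom on recovered reads and no filter, that against untreated cells passed (adjusted p = 0.0195) and that against PLG+EACA did not (adjusted p = 0.0838). The difference against untreated cells had an exact permutation p of 0.0571 after median-of-ratios scaling (n = 4). Its ligand Ccl2 averaged 52.1 ± 12.4 FPKM with PLG+EACA+RNase, 62.0 ± 22.6 FPKM with PLG+EACA and 32.2 ± 4.06 FPKM in untreated cells (SD, n = 4).

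Ccr3, the eotaxin receptor of eosinophils and basophils, had 0.24, 0.109, 0.354 and 0.065 FPKM with PLG+EACA+RNase (16, 6, 15 and 4 reads), 0.063, 0.094, 0.137 and 0.07 FPKM with PLG+EACA (4 to 8 reads), and 0, 0.041, 0.09 and 0.055 FPKM in untreated cells (0 to 6 reads). Replicates 1 and 3 of PLG+EACA+RNase were the highest of the 12 libraries, and all groups overlapped. The exact permutation p was 0.0571 for PLG+EACA+RNase against untreated cells, 0.229 for PLG+EACA+RNase against PLG+EACA, and 0.114 for PLG+EACA against untreated cells (n = 4). With limma voom on recovered reads and no filter, the first of these passed (adjusted p = 0.0333) and the others did not (adjusted p = 0.427 and 0.234). Without replicates 1 and 3 the difference in mean FPKM between PLG+EACA+RNase and untreated cells was 0.0405, against 0.146 with them. The 6 mast cell and basophil markers summed to 5.46, 21.5, 7.16 and 6.23 FPKM in replicates 1 to 4 of PLG+EACA+RNase, 3.61 to 5.75 FPKM with PLG+EACA and 4.75 to 7.24 FPKM in untreated cells. In those replicates the basophil protease gene Mcpt8 was at 0.442, 3.8, 0.31 and 0.053 FPKM, and Prss34 at 1.61, 12.25, 2.34 and 0.908 FPKM. Prss34 did not exceed 0.325 FPKM with PLG+EACA. It averaged 0.5205 FPKM in untreated cells, whose highest library lay above replicate 4 of PLG+EACA+RNase. Limma called 1 of the 2 markers of this list that were tested higher in PLG+EACA+RNase against each other group. Gata2 was not higher in mean FPKM, which leaves Prss34. Prss34 reached 1 FPKM only in replicates 1, 2 and 3 of PLG+EACA+RNase and in replicate 3 of untreated cells. It thus met the filter mostly through the group in which it was higher, so the call does not by itself establish a rise. Its mean of 4.28 FPKM with PLG+EACA+RNase was raised by the 12.25 FPKM of replicate 2. The 7 eosinophil markers summed to 14.3 to 17.9 FPKM with PLG+EACA+RNase, 15.7 to 22.3 FPKM with PLG+EACA and 13.3 to 16.5 FPKM in untreated cells, most of it Siglecf, Ear2 and Ear6. The eosinophil granule protein genes were low: Prg2 averaged 0.739 FPKM with PLG+EACA+RNase (0 to 2.90 FPKM, the highest in replicate 4), 0.925 FPKM with PLG+EACA and 0.129 FPKM in untreated cells. Epx averaged 0.228 FPKM with PLG+EACA+RNase, 0.0705 FPKM with PLG+EACA and 0.021 FPKM in untreated cells, and Il5ra did not exceed 0.019 FPKM in any library. The part of such cells in these values was not tested, and in bulk RNA fewer cells of a type cannot be told apart from less RNA per cell.

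**Figure D3:**
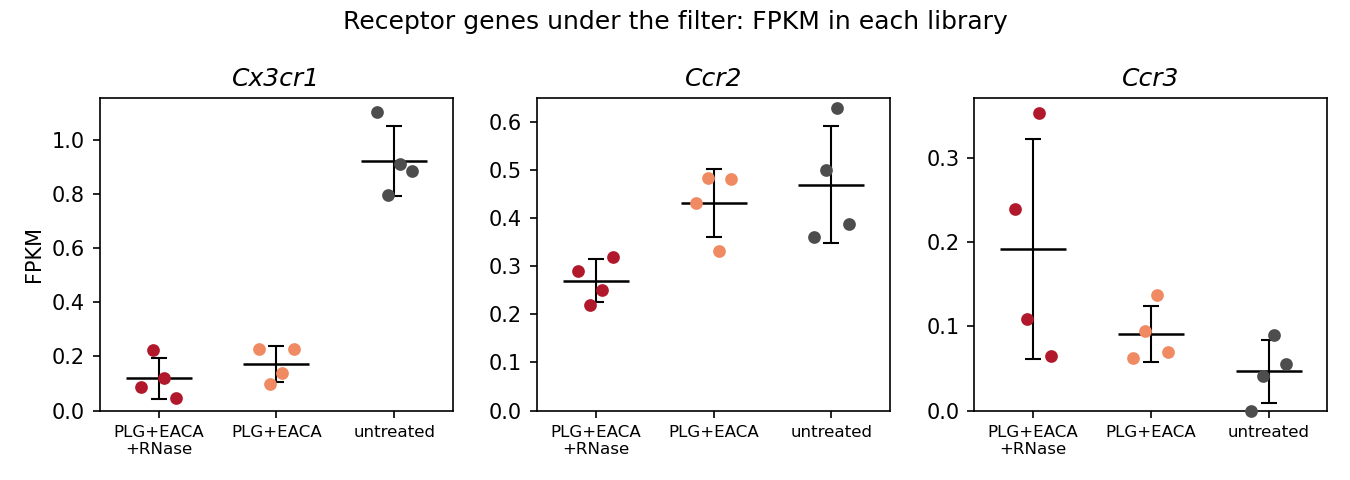
FPKM (vertical axes, from 0) of the 3 receptor genes under the filter, drawn as in the plot of the expressed receptors, with 1 point per library and the mean with 1 SD (n = 4). Cx3cr1 is at 0.796 to 1.10 FPKM in untreated libraries and at most 0.228 FPKM in treated ones, and Ccr3 does not exceed 0.354 FPKM.

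The order of the levels differed between untreated and treated cells. With PLG+EACA+RNase it ran Ccrl2, Fpr2, Cmklr1, Fpr1, Ccr1, Cxcr4, Ccr2, Ccr3 and Cx3cr1, with overlapping libraries between Ccrl2 and Fpr2, Cmklr1 and Fpr1, Fpr1 and Ccr1, Ccr2 and Ccr3, and Ccr3 and Cx3cr1. With PLG+EACA the order was Fpr2, Ccrl2, Fpr1, Cmklr1, Ccr1, Cxcr4, Ccr2, Cx3cr1 and Ccr3, where Fpr1 and Cmklr1, and Cx3cr1 and Ccr3, overlapped as neighbours and the lowest Fpr2 and highest Ccrl2 library were both at 98.4 FPKM. In untreated cells it ran Fpr2, Cmklr1, Fpr1, Ccr1, Cxcr4, Ccrl2, Cx3cr1, Ccr2 and Ccr3, and the neighbours that overlapped were Fpr1 and Ccr1, and Ccr1 and Cxcr4.

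The FPKM summed over the 9 genes was 286 ± 16.5 with PLG+EACA+RNase, 329 ± 13 with PLG+EACA and 316 ± 16.3 in untreated cells (SD, n = 4). Ccrl2 made up 31.5% of that sum with PLG+EACA+RNase, 28.6% with PLG+EACA and 4.86% in untreated cells. Cmklr1 took 12.6% with PLG+EACA+RNase, 12.2% with PLG+EACA and 22.2% in untreated cells. Cxcr4 took 4.71% with PLG+EACA+RNase, 3.64% with PLG+EACA and 13% in untreated cells. Fpr2 took 29.5% with PLG+EACA+RNase (28.7% to 31.4% by library), 33.0% with PLG+EACA (31.7% to 33.8%) and 29.0% in untreated cells (26.8% to 30.8%). Its share with PLG+EACA thus overlapped neither other group. Cx3cr1, Ccr2 and Ccr3 each stayed at or below 0.330% in every library.

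**Figure D4:**
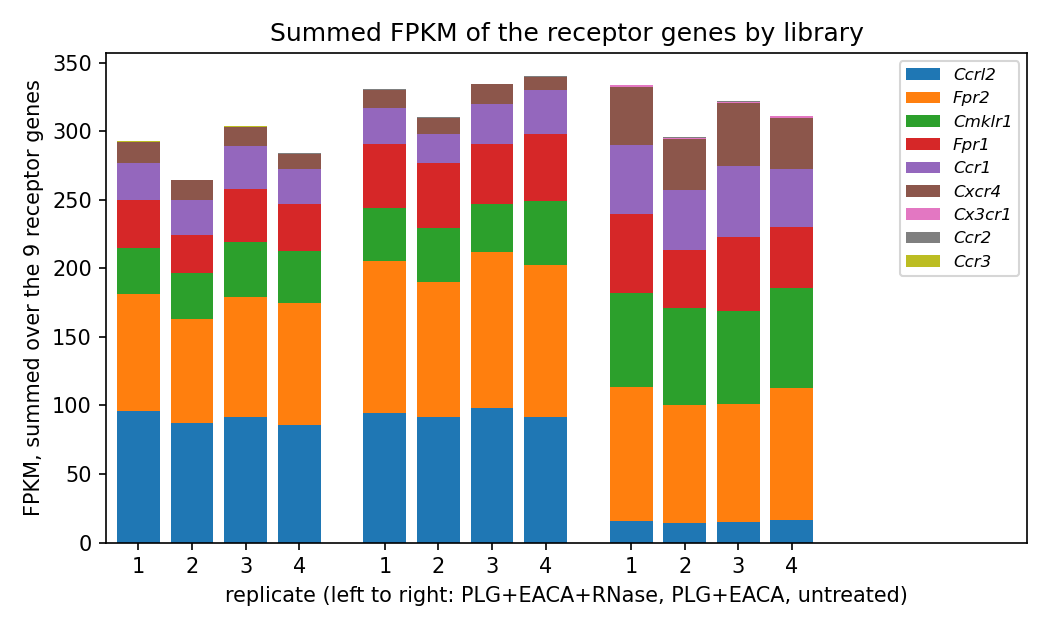
FPKM of the 9 receptor genes stacked for each library (vertical axis, from 0), with replicates 1 to 4 of PLG+EACA+RNase, PLG+EACA and untreated cells from left to right. Ccrl2 is 31.5% and 28.6% of the stack in the treatments and 4.86% in untreated cells, with the summed height at 286, 329 and 316 FPKM on average.

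By counts, 1 of the 6 receptors tested was higher and 4 were lower in PLG+EACA+RNase against untreated cells, where 64.4% of all genes tested were called (16.0% higher and 48.4% lower). In PLG+EACA against untreated cells 2 were higher and 3 lower, where 68.3% of all genes were called (14.9% higher and 53.4% lower). With only 6 receptors tested, whether their share called differs from that of all genes was not tested. After median-of-ratios scaling the receptors' counts were 1 higher and 4 lower, and 2 higher and 3 lower, while 54.8% of all genes were called in the first (28.4% higher and 26.4% lower) and 53.7% in the second (27.3% higher and 26.4% lower). In PLG+EACA+RNase against PLG+EACA none of the 6 was higher and 2 were lower, where 20.8% of all genes were called (12.1% higher and 8.73% lower), or 22.0% after median-of-ratios scaling (10.6% higher and 11.4% lower), with the same counts of receptors. Over all 9 genes, groups did not overlap for 7 in PLG+EACA+RNase against untreated cells, for 6 in PLG+EACA against untreated cells and for 3 between the treatments, against 61.7%, 64.6% and 18.1% of the genes tested. The counts include genes under the filter, which the shares leave out: Cx3cr1 and Ccr2 in the first, Cx3cr1 in the second and Ccr2 in the third. Both treatments were compared with the same untreated libraries.

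The genes whose pattern over the 12 libraries was most like each receptor's were found by Pearson correlation of log2(FPKM + 0.5), which is carried by the differences between groups as well as by the libraries. For Ccrl2 they were the neutrophil chemoattractant gene Cxcl2 (r = 0.996), Plk2 (r = 0.995) and Fabp3 (r = 0.994), and Cxcl2 averaged 799 FPKM with PLG+EACA+RNase, 883 FPKM with PLG+EACA and 145 FPKM in untreated cells. For Cmklr1 they were Rab1b (r = 0.991), Myo1f (r = 0.989) and Fes (r = 0.989). For Cxcr4 they were Slf2 (r = 0.995), Mras (r = 0.994) and Ticam2 (r = 0.993), and for Ccr1 they included Tmem50a (r = 0.984) and Pilrb2 (r = 0.981). The likeness was weaker for Fpr1, led by Rasgrp1 (r = 0.924), Rab28 (r = 0.918) and Leprotl1 (r = 0.915), and for Fpr2, led by Ttc9c (r = 0.913), Skil (r = 0.912) and Mfsd14b (r = 0.900).

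Among ligands of these receptors, 12 of 18 in the table passed the filter. In PLG+EACA+RNase against untreated cells 4 were higher and 5 lower, and their median log2 fold change exceeded the median gene's by 0.50. In PLG+EACA against untreated cells 5 were higher and 4 lower, with 0.57 for the same quantity. Scaled by median of ratios, both comparisons gave 5 higher and 1 lower. Between the treatments 0 were higher and 1 was lower, with the median -0.23 from the median gene. The Ccr1 ligand gene Ccl5 rose 5.84-fold with PLG+EACA+RNase (348.7 ± 65.9 FPKM, against 58.8 FPKM in untreated cells; limma adjusted p = 2.49e-07) and 7.35-fold with PLG+EACA (438.6 ± 89.6 FPKM; limma adjusted p = 1.12e-07). Ccl4 rose 3.75-fold with PLG+EACA+RNase and 3.99-fold with PLG+EACA, and Ccl3, another Ccr1 ligand gene, 2.10-fold and 2.37-fold. Ccl9 fell 1.4-fold with PLG+EACA (limma adjusted p = 0.00353), a call that ended with median-of-ratios scaling (adjusted p = 0.197). Anxa1, which encodes the Fpr2 ligand annexin A1, was the 1 ligand gene called between the treatments: it fell 1.21-fold to 273.3 ± 12.5 FPKM with PLG+EACA+RNase, against 331.7 ± 33.0 FPKM with PLG+EACA (SD, n = 4, limma adjusted p = 0.0167).

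Of 18 other chemoattractant receptors in the table, 9 passed the filter, with 3 higher and 4 lower in PLG+EACA+RNase against untreated cells, 3 higher and 3 lower in PLG+EACA against untreated cells, and 1 higher and 1 lower between the treatments; their median log2 fold changes stood 0.16, 0.26 and -0.21 from the median gene in these comparisons. Scaled by median of ratios, the counts were 4 and 4, 4 and 3, and 1 and 1. C5ar1, the receptor for complement C5a, averaged 4.74 ± 0.502 FPKM with PLG+EACA+RNase, 6.26 ± 0.527 FPKM with PLG+EACA and 3.66 ± 0.382 FPKM in untreated cells (SD, n = 4). It rose 1.63-fold in PLG+EACA against untreated cells (limma adjusted p = 2.13e-05) and fell 1.29-fold in PLG+EACA+RNase against PLG+EACA (limma adjusted p = 0.0151). C3ar1, the C3a receptor gene, fell 3.16-fold with PLG+EACA+RNase and 2.44-fold with PLG+EACA, the UDP receptor gene P2ry6 2.38-fold and 2.12-fold, and the leukotriene B4 receptor gene Ltb4r1 1.63-fold and 1.64-fold. Gpr183, an oxysterol receptor gene, rose 1.46-fold with PLG+EACA+RNase against untreated cells (limma adjusted p = 0.00149), and the nucleotide receptor gene P2ry2 rose 1.49-fold in PLG+EACA+RNase against PLG+EACA (limma adjusted p = 0.0394).

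Of 17 other chemokine receptors in the table, 3 passed the filter. In PLG+EACA+RNase against untreated cells 1 was higher and 2 were lower, the median log2 fold change lying -0.28 from the median gene, and 1 was higher and 1 lower once scaled by median of ratios. In PLG+EACA against untreated cells 0 were higher and 1 was lower, or 1 and 0 once scaled, and the median lay 0.11 above the median gene. Between the treatments limma called none, and the median lay -0.37 from the median gene. Ccr7, which guides activated dendritic cells to lymph nodes, rose 1.56-fold with PLG+EACA+RNase (121.6 ± 15 FPKM, against 78.5 ± 15.9 FPKM in untreated cells, SD, n = 4, limma adjusted p = 0.0105). Ccr4 fell 1.96-fold with PLG+EACA+RNase (limma adjusted p = 0.000289) and 1.47-fold with PLG+EACA (limma adjusted p = 0.0106), and the second of these calls ended with median-of-ratios scaling (adjusted p = 0.139).

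Of 30 genes for signalling and desensitisation behind these receptors, 28 passed the filter. In PLG+EACA+RNase against untreated cells 3 were higher and 18 lower, and in PLG+EACA against untreated cells 4 were higher and 18 lower, with median log2 fold changes -0.03 and -0.0066 from the median gene. Once scaled by median of ratios, both comparisons gave 7 higher and 10 lower. The beta-arrestin gene Arrb1, whose protein uncouples and internalises receptors, fell 1.92-fold with PLG+EACA+RNase and 2.0-fold with PLG+EACA, and the receptor kinase gene Grk2 1.52-fold and 1.47-fold. Arrb2 fell 1.71-fold and the phospholipase gene Plcb2 1.65-fold with PLG+EACA, Rgs19, an inhibitor of G protein signalling, fell 1.65-fold with PLG+EACA+RNase, and Elmo1, which with Dock2 activates Rac, rose 1.56-fold with PLG+EACA+RNase. Between the treatments 5 were higher and 2 lower, and 3 higher and 2 lower once scaled, with the median 0.02 above the median gene. Plcb2 rose 1.25-fold, Grk3 1.25-fold and Arrb2 1.22-fold in PLG+EACA+RNase, and Rgs14 fell 1.57-fold (limma adjusted p = 0.00760, 0.0107, 0.00979 and 0.0218).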

How the data were processed

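RNA-seq of 12 libraries, 4 per group, was analysed from 1 table of FPKM values deposited by the authors. Per the submitters' processing notes, cutadapt 4.5, FastQC 0.12.1, STAR 2.7.11a, featureCounts 2.0.6 and DESeq2 1.40.2 were used with the mouse build GRCm38.p6; their roles, the strand setting and the annotation are not given in the sources used here. Coordinates are on that build. Groups came from the treatment labels of the samples, and replicate numbers and table columns from the sample titles.

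FPKM were tested as log2(FPKM + 0.5) with limma 3.58.1 (R 4.3.3, eBayes with trend, all 12 libraries in 1 model), two-sided, with Benjamini-Hochberg adjustment over 11165 genes. Recovered reads came out whole within 0.1 for 100% of the values used. The limma step was tested on simulated data. Receptors under the filter were compared by exact permutation (Python 3.11.15, scipy 1.17.1). The alternatives were another pseudocount, filter, scaling or variance model, a replicate block, only the groups compared, voom on recovered reads, and each library left out. Promoters came from RefSeq.

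The receptors and lists were chosen with earlier results of these data known. From each pathway list, up to 4 called genes with the smallest p were named per comparison, and for each tested receptor the 3 genes most correlated with it; 2 genes that this rule picks are not reported here.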

Additional observations from a re-analysis of the deposited data

Results flagged for a closer look

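Of 27 combinations of receptor and group, 1 held a library far from the others. Fpr2 in PLG+EACA cells was 98.4 FPKM in replicate 2, against 110.8, 113.2 and 111.5 FPKM in replicates 1, 3 and 4, a gap of 0.839 of the group's range, past Dixon's 95% critical value for 4 libraries. Chance places about 1 in 20 groups past that value. With any 1 library left out, Fpr2 kept its call in PLG+EACA+RNase against PLG+EACA (log2 fold change -0.41 to -0.31, limma adjusted p = 0.00323 to 0.0244) and in PLG+EACA against untreated cells (0.21 to 0.29, limma adjusted p = 0.00249 to 0.0230).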

How the results depend on the processing

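The count of genes called in PLG+EACA+RNase against PLG+EACA, 2324, was 735 with only the 2 groups compared and 929 to 3180 with 1 library left out; it was 1452 without PLG+EACA replicate 4, 947 without PLG+EACA+RNase replicate 2 and 929 without PLG+EACA+RNase replicate 3. The receptors called stayed at 2 there, and at 5 in both comparisons with untreated cells, whichever library was left out. Under the other alternatives, apart from voom without a filter, they were 2, and 5 to 6 against untreated cells.

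Some log2 fold changes that passed no threshold changed sign. Fpr1 in PLG+EACA against untreated cells was 0.20 with median-of-ratios scaling, with or without a replicate block, 0.090 with upper-quartile scaling, and -0.14 to 0.0013 with 1 library left out. Fpr2 in PLG+EACA+RNase against untreated cells was 0.12 with median-of-ratios scaling, with or without a replicate block, and 0.045 with upper-quartile scaling. Ccr1 in PLG+EACA+RNase against PLG+EACA was -0.021 with median-of-ratios scaling, with or without a replicate block, and -0.10 to 0.11 with 1 library left out. The difference of Ccr2 in PLG+EACA against untreated cells was -0.0378 FPKM with values as deposited. It was 0.0498 FPKM after median-of-ratios scaling and 0.0154 FPKM without untreated replicate 3. The cause was not tested.

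The replicate block gave 7284 genes called in PLG+EACA+RNase against untreated cells, 7697 in PLG+EACA against untreated cells and 2678 between the treatments, and Fpr2 in PLG+EACA+RNase against untreated cells then passed (limma adjusted p = 0.0491). Same-numbered libraries of different groups correlated at -0.176 to 0.332 in their deviations from group means, and differently numbered ones at -0.336 to 0.118. These ranges overlap, with the highest value in a same-numbered pair, so they do not settle whether the numbers pair the libraries. The labels used here do not say so either, and the main fit left pairing out. Voom on recovered reads without a filter, an alternative chosen after seeing the data, called 8 of the 9 receptors in PLG+EACA+RNase against untreated cells, 6 in PLG+EACA against untreated cells and 2 between the treatments. The 8 include Cx3cr1, Ccr2 (adjusted p = 0.0195) and Ccr3 (adjusted p = 0.0333), the last on 41 reads over 4 libraries against 11; depth limits what can be said of Ccr3, Ccr2 and Cx3cr1.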

Other observations

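Within-library ratios of paired receptors, which do not depend on the scaling between libraries, were also compared. Ccrl2 over Cmklr1 was 2.28 to 2.86 with PLG+EACA+RNase, 1.96 to 2.80 with PLG+EACA and 0.206 to 0.226 in untreated cells, an 11.4-fold and a 10.8-fold higher ratio in the treatments (exact permutation p = 0.0286, n = 4, the smallest possible, and 0.0514 adjusted by Benjamini-Hochberg over 9 ratio tests). Ccr1 over Cxcr4 averaged 2.07 with PLG+EACA+RNase, 2.36 with PLG+EACA and 1.15 in untreated cells, with the same p-values for each treatment against untreated cells. Fpr1 over Fpr2 averaged 0.400 with PLG+EACA+RNase, 0.432 with PLG+EACA and 0.540 in untreated cells, and between the treatments it had an exact permutation p of 0.2 (0.257 adjusted, n = 4). None of the 9 ratio tests passed after adjustment; 5 had an exact permutation p of 0.0286 before it.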
